A study of Bos taurus with 8 samples.

Results

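The proprotein convertases are serine proteases that cut inactive protein precursors after pairs of basic residues. Their 7 genes with this specificity named for the comparison, FURIN, PCSK1, PCSK2, PCSK4, PCSK5, PCSK6 and PCSK7, were looked up by symbol among the 30983 genes of the deposited table. Of these, 6 were matched, and PCSK5 is not analysed here. The members are picked out by symbol, and PCSK4, the germ cell form, was compared with the others.

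Testis mRNA of Chinese Red Steppes cattle was sequenced at 2 ages, each group being 3 animals with a library for each animal. The immature group held calves of 1 day, whose testes were removed by castration, and the mature group held bulls of 24 months, whose testes were taken at slaughter. Age and the way of collection therefore cannot be told apart, and no other treatment or genotype was given for either group. RNA came from testicular lobules with all their cell types, so that fewer cells of a type and less RNA per cell cannot be told apart in any value below.

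Convertases act along the secretory route. FURIN and PCSK7 are made in most cell types and act in the trans-Golgi network and near the cell surface, PCSK6 is secreted and binds the matrix around the cell, and PCSK1 and PCSK2 work in the storage granules of endocrine cells and neurons. PCSK4 is known from germ cells of the testis, and male mice that lack it have low fertility. Their substrates include growth factors of the TGF-beta family, receptors, metalloproteases, prohormones and sperm surface proteins.

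Library totals ran from 14139087 to 15846257 counts. The labels were checked against marker genes of the tissue. Summed levels of 5 spermatid markers ran from 3.84 to 5.09 CPM (counts per 1000000 counts of the scaled library) in the immature libraries and from 7565 to 12670 CPM in the mature ones, those of 3 spermatocyte markers from 22.6 to 26.8 and from 183 to 213 CPM, and those of 5 Sertoli cell markers from 3001 to 4319 and from 156 to 196 CPM. AMH alone made up 2159 to 3409 CPM of the immature Sertoli cell sums, and the other 4 markers summed to 842 to 1059 and 149 to 182 CPM. All 8 germ cell markers were called higher and all 5 Sertoli cell markers lower in the mature testes. ACRV1, TNP1 and PRM2 passed the filter on low counts through the mature libraries alone, so their calls were partly fixed by the filter. None of these markers was at 0 in all libraries of a group. Summed levels of 5 Leydig cell markers overlapped, at 1719 to 2845 and 1506 to 2823 CPM.

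Between the ages PCSK4, PCSK6 and PCSK1 rose, FURIN and PCSK2 fell, and PCSK7 was not called. Calls come from the quasi-likelihood test of edgeR over 19972 genes and needed a Benjamini-Hochberg adjusted p under 0.05 together with an absolute log2 fold change above 1. Changes of this size were common, since 31.7% of all genes tested were called higher, 30.4% lower and 62.0% in either direction. Of the 6 convertases tested, 3 were called higher and 2 lower, which is 83.3% called, and the median log2 fold change was 0.87 against −0.04 over all genes tested. For 3 convertases every mature library lay above every immature one, and for the other 3 every mature library lay below, where 40.9% of all genes tested were separated upward and 40.9% downward. PCSK2 passed the filter on low counts through its immature libraries alone, so its place among the lower genes was partly fixed by the filter, and with so few members these counts are a description.

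**Figure D1:**
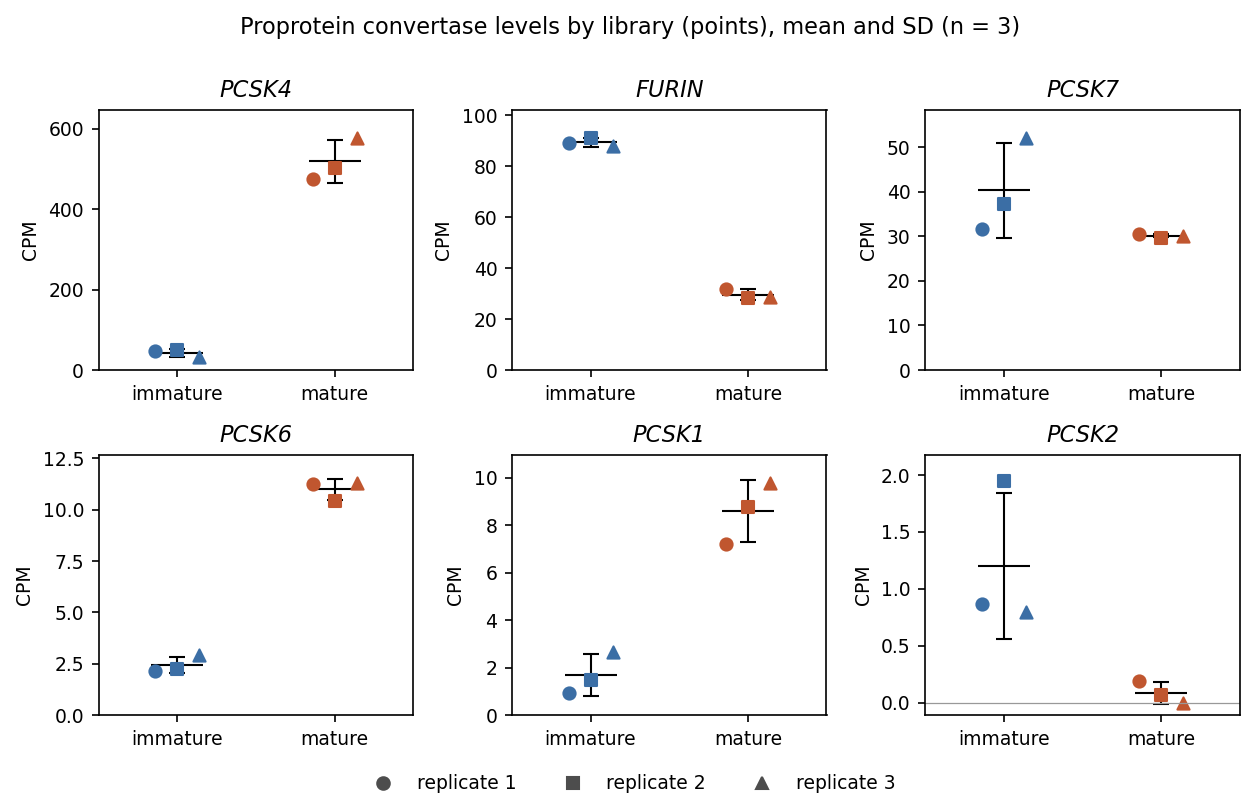
Level of each convertase in CPM (counts per 1000000, linear axis, a separate scale for each gene) in the 3 immature and 3 mature libraries, as points whose shape marks the replicate, with a line at the mean and bars of 1 SD (n = 3). The PCSK4 points lie at 31.7 to 51.0 CPM in immature and 475 to 578 CPM in mature testes, while the groups of PCSK7 come within 1.04-fold of each other.

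PCSK4 had 46.2, 51.0 and 31.7 CPM in immature replicates 1, 2 and 3 and 475, 503 and 578 CPM in the mature replicates, from 479 to 787 and from 7502 to 8382 counts. The groups were far apart, with 9.31-fold between the closest libraries, and immature replicate 3 was the lowest of all. The mean rose from 43.0 ± 10.05 to 519 ± 53.4 CPM (SD, n = 3), a log2 fold change of 3.59 (SE 0.19, 95% interval 3.15 to 4.04, adjusted p = 6.93e-07). Among all genes tested, 14.8% had a larger absolute log2 fold change.

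The PCSK4 transcript was already counted in every newborn testis, at a mean of 8.28% of its mature level. That share can be set beside those of germ cell genes in the same libraries. SYCP1 and DMC1, which act in meiotic chromosome pairing and recombination, stood in the immature testes at 10.6% and 4.66% of their mature levels, and SYCP3, another protein of the synaptonemal complex, stood at 27.2%. Genes of the acrosome and of sperm chromatin stood lower, with ACRBP at 1.504%, ACR at 0.431%, TNP1 at 0.0821% and PRM1 at 0.0454%. The highest shares among the sperm surface and acrosome genes were those of ZPBP2 at 3.74% and SPAM1 at 2.88%, not far below DMC1. PCSK4 lay within the range of the 3 spermatocyte markers and above the 5 spermatid markers, which ran from 0.0382% to 0.0821%. ACR, ACRV1, TNP1 and PRM2 passed the filter through the mature libraries alone, so these shares are a description and assign PCSK4 to no germ cell stage. The cells in which PCSK4 was transcribed at 1 day were not tested.

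FURIN, the convertase of the trans-Golgi network in most cells, had 89.1, 91.3 and 87.9 CPM in the immature and 32.0, 28.1 and 28.6 CPM in the mature replicates. Its 3 immature libraries lay within 1.04-fold of each other, and the closest libraries of the 2 groups were 2.75-fold apart. The mean fell from 89.4 ± 1.72 to 29.6 ± 2.13 CPM, a log2 fold change of −1.60 (SE 0.11, 95% interval −1.86 to −1.34, adjusted p = 3.19e-06). Almost as many genes had a larger change as a smaller one, with 46.9% of those tested above FURIN in absolute log2 fold change.

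PCSK7, the other widely made convertase, had 31.6, 37.3 and 52.2 CPM in the immature and 30.4, 29.7 and 30.1 CPM in the mature replicates. All immature values were above all mature ones, but immature replicate 1 exceeded mature replicate 1 by only 1.04-fold. The spread between animals differed, with a coefficient of variation of 26.3% in immature and 1.19% in mature testes. The log2 fold change was −0.42 (SE 0.19, 95% interval −0.85 to 0.0074, adjusted p = 0.0665), which did not pass the test. The interval ends above −1, so a fall to the size of the fold threshold lay outside it. Without immature replicate 3 the log2 fold change was −0.20 (adjusted p = 0.21), and without immature replicate 1 it was −0.58 (adjusted p = 0.0131), and in both fits the absolute log2 fold change stayed under 1. The adjusted p of the same test also depended on the scaling. It was 0.0113 with upper-quartile factors (−0.62), 0.0327 with library totals only (−0.48) and 0.139 with RLE factors (−0.33), with no call in any of them.

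PCSK6, also known as PACE4, was counted at 32, 35 and 44 reads in the immature and 180, 155 and 164 reads in the mature replicates, or 2.14, 2.27 and 2.91 CPM and 11.3, 10.4 and 11.3 CPM. The closest libraries were 3.57-fold apart. Its mean rose from 2.44 ± 0.413 to 11.0 ± 0.515 CPM, a log2 fold change of 2.17 (SE 0.22, 95% interval 1.66 to 2.68, adjusted p = 3.12e-05). PCSK6 and FURIN, which can process some of the same growth factors, moved in opposite directions.

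PCSK1, which makes the first cuts in prohormones such as proopiomelanocortin, was counted at 14, 23 and 40 reads in the immature and 115, 131 and 142 reads in the mature replicates. These are 0.938, 1.49 and 2.65 CPM against 7.20, 8.79 and 9.79 CPM, with no overlap and 2.72-fold between the closest libraries. The mean rose from 1.69 ± 0.873 to 8.60 ± 1.31 CPM, a log2 fold change of 2.34 (SE 0.38, 95% interval 1.47 to 3.20, adjusted p = 0.00048). The immature animals spread over 2.82-fold, and replicate 3, highest for PCSK1, was also highest for PCSK6 and PCSK7 and lowest for PCSK4.

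PCSK2, the granule convertase that acts after PCSK1 on many prohormones, was near the limit of detection. Its counts were 13, 30 and 12 in the immature and 3, 1 and 0 in the mature replicates, too few in the mature libraries to pass the filter without the immature ones. The log2 fold change was −3.66 (SE 0.75, 95% interval −5.39 to −1.93, adjusted p = 0.002). The summed counts of 55 and 4 gave a log2 ratio of −3.78, with a 95% interval of −5.70 to −2.34 that covers counting error only. Without mature replicate 1, which held 3 of the 4 mature reads, the log2 fold change was −4.78, and with a filter of 1 CPM in 3 libraries PCSK2 was not tested.

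**Figure D2:**
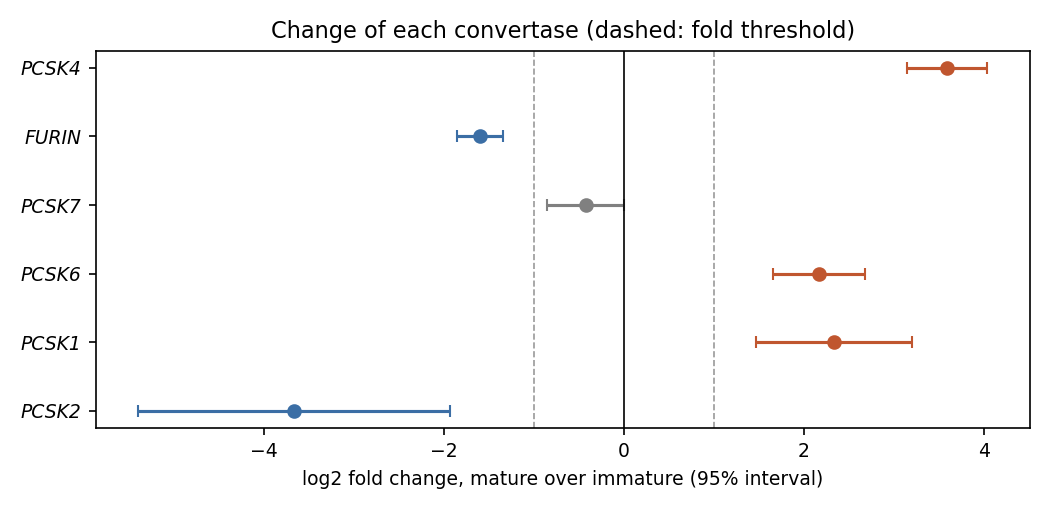
Log2 fold change of each convertase, mature over immature, with its 95% interval (horizontal bars) from edgeR, in red where called higher, blue where called lower and grey where not called, and with dashed lines at −1 and 1. The intervals of PCSK4, PCSK6 and PCSK1 lie above 1, those of FURIN and PCSK2 below −1, and that of PCSK7 lies between −0.85 and 0.0074.

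Convertases that act in the same place did not have the same values. The intervals of PCSK1 (1.47 to 3.20) and PCSK2 (−5.39 to −1.93) were on different sides of 0, and the interval of FURIN (−1.86 to −1.34) did not reach that of PCSK7 (−0.85 to 0.0074). PCSK1 and PCSK6, by contrast, had overlapping intervals of 1.47 to 3.20 and 1.66 to 2.68. The difference between 2 convertases was not tested.

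The make-up of the convertase reads shifted toward PCSK4. It held 27.0% (95% Wilson interval 25.3 to 28.8), 27.5% (25.9 to 29.2) and 17.8% (16.4 to 19.3) of all reads of the 6 genes in immature replicates 1, 2 and 3. In mature replicates 1, 2 and 3 it held 85.4% (84.7 to 86.1), 86.7% (86.0 to 87.4) and 87.9% (87.2 to 88.5). The groups did not overlap, and the mean share went from 24.1 ± 5.48% to 86.7 ± 1.23%, a difference of 62.5 percentage points. Wilson intervals cover counting error only, and the shares are of reads, not of molecules, because longer transcripts give more reads and no transcript lengths were used.

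**Figure D3:**
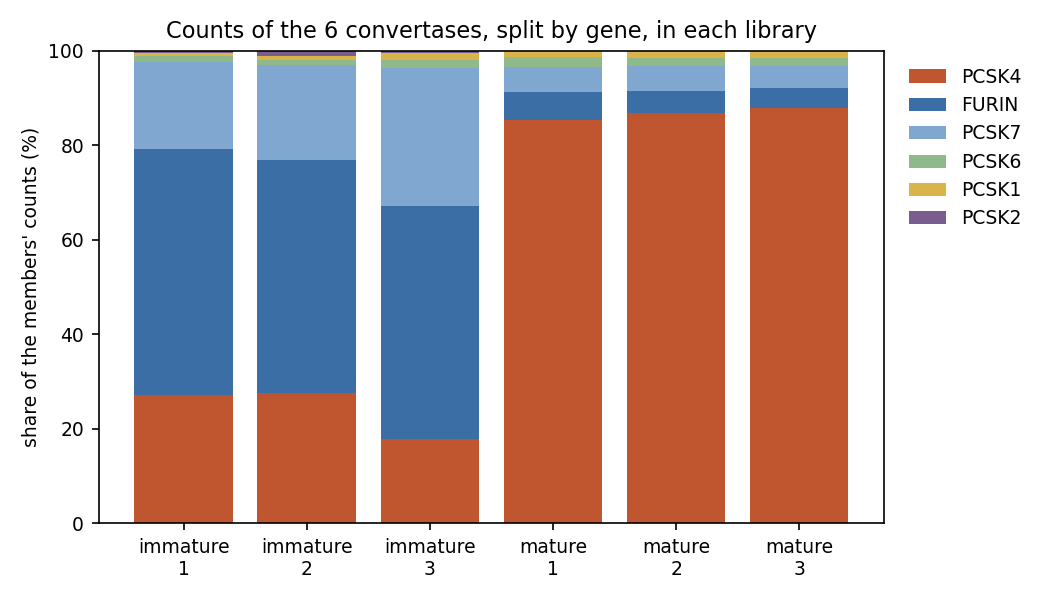
Share of the reads of the 6 convertases (%, linear axis from 0) that each gene took in each of the 3 immature and 3 mature libraries, stacked to 100%. PCSK4 takes 17.8% to 27.5% in immature and 85.4% to 87.9% in mature testes, where FURIN and PCSK7 make up most of the rest.

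The gain of PCSK4 was larger than the net fall in the sum of the other 5 convertases. Their summed level was 135 ± 10.9 CPM in immature and 79.3 ± 2.05 CPM in mature testes, while all 6 together were at 178 ± 7.16 and 598 ± 53.2 CPM. Read against single members, PCSK4 had 0.518, 0.559 and 0.361 reads per FURIN read in the immature replicates and 14.8, 17.9 and 20.2 in the mature ones. Its ratio to PCSK7 went from 1.46, 1.37 and 0.608 to 15.6, 16.9 and 19.2. These ratios are free of library scaling, and each separated the ages completely.

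Against the 2 other convertases that rose, the shift was smaller. PCSK4 had 21.6, 22.5 and 10.9 reads per PCSK6 read in the immature and 42.1, 48.4 and 51.1 in the mature replicates, a change of 1.45 in the mean log2 ratio. For PCSK1 the ratio was 49.3, 34.2 and 12.0 against 65.9, 57.3 and 59.0. The mean log2 ratio of PCSK4 to PCSK1 changed by 1.18, beside an SD of 1.04 among the immature animals and 0.11 among the mature ones, and 49.3 and 57.3 were the closest values.

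With PCSK4 left aside, the remaining reads were also divided differently. FURIN took 60.0% to 71.5% of the reads of the other 5 convertases in immature and 35.8% to 39.5% in mature testes. PCSK7 took 25.3% to 35.6% and 37.5% to 38.6%, PCSK6 1.69% to 1.99% and 13.5% to 14.2%, and PCSK1 0.752% to 1.81% and 8.88% to 12.3%. The groups did not overlap for any of these 4 genes, and in the mature libraries FURIN and PCSK7 had nearly equal read shares.

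For each convertase, the 3 named genes with the most similar profile over the 6 libraries were found by the root mean square distance between centred log2 CPM values. For PCSK4 these were TMEM8A (0.068), SYT5 (0.087) and CCDC34 (0.088), whose log2 fold changes of 3.58, 3.54 and 3.59 matched its 3.59 and which also had their lowest level in immature replicate 3. For FURIN they were CARD19 (0.034), MUTYH (0.039) and MRPS34 (0.039), at −1.61, −1.62 and −1.60. For PCSK7 they were PTP4A1 (0.044), EIF3J (0.058) and MRTO4 (0.066), all highest in immature replicate 3. PCSK6 was closest to GGNBP2 (0.066), SLAIN2 (0.068) and PSMA6 (0.072), PCSK1 to DNAJB5 (0.11), CRHR1 (0.15) and FAM46B (0.17), and PCSK2 to TLR8 (0.20), SLC51B (0.21) and TRGC3 (0.23). With 6 libraries in 2 groups, the distance is small for any gene with the same step between the ages. The genes were picked for that small distance, so their like fold changes and replicate patterns follow from the choice.

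Neighbouring genes were taken by name from the ARS-UCD2.0 annotation, a later assembly than the one used for the counts, so no coordinates are given. PCSK4 lies between C7H19orf25 and REEP6. REEP6, a receptor accessory protein, rose more than PCSK4, from 119, 91 and 47 to 5849, 6546 and 8162 counts (log2 fold change 6.33, SE 0.36, adjusted p = 2.53e-06), while C7H19orf25 was not called at −0.33 (adjusted p = 0.169). The reads of PCSK4 per read of REEP6 went from 5.80, 8.65 and 10.2 down to 1.30, 1.15 and 1.03, so the 2 genes did not keep a fixed proportion. Whether reads were counted by strand is not stated in the sources used here, and sharing of reads between neighbours was not tested.

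FURIN lies between FES, a tyrosine kinase gene that fell (log2 fold change −2.33, SE 0.28), and BLM, a DNA helicase gene that rose (1.61, SE 0.15). PCSK7 lies between TAGLN, a smooth muscle actin-binding protein gene that fell (−2.62, SE 0.15), and RNF214, which was not called (0.41, SE 0.16). PCSK6 lies between TM2D3 (−0.45) and SNRPA1 (0.15), neither of them called. LOC101906554, which overlaps PCSK6 in that annotation, rose from 4, 2 and 3 to 14, 36 and 30 counts (3.12, SE 0.54). It passed the filter through the mature libraries alone, so its call was partly fixed by the filter. The overlap was read from gene start and end only, and whether LOC101906554 and PCSK6 shared reads was not tested. LOC100300380, which also overlaps PCSK6, was not called (0.19, SE 0.50).

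Relatives and partners of the convertases were read from fixed lists, each beside the 62.0% of all genes called and their median log2 fold change of −0.04. MBTPS1, the site-1 protease that cuts sterol-regulated transcription factors and has the same subtilisin fold, fell from 184 ± 4.72 to 39.3 ± 0.913 CPM (log2 fold change −2.23, SE 0.10, adjusted p = 2.53e-07). TPP2, a large cytosolic peptidase of that fold, rose from 65.4 ± 7.80 to 286 ± 17.3 CPM (2.13, SE 0.12, adjusted p = 1.03e-06).

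Dedicated partners of the granule convertases fell between the ages. SCG5 encodes 7B2, which PCSK2 needs to become active, and had 577, 549 and 514 counts in the immature and 14, 14 and 3 in the mature replicates. Its mean fell from 36.1 ± 2.35 to 0.674 ± 0.406 CPM (log2 fold change −5.71, SE 0.37, adjusted p = 1.94e-06), in the same direction as PCSK2. PCSK1N encodes proSAAS, an inhibitor of PCSK1, and fell from 116 ± 20.8 to 15.9 ± 6.44 CPM (−2.87, SE 0.29, adjusted p = 4.15e-05), while PCSK1 itself rose. Of the guanylate-binding proteins known in human cells to lower FURIN activity, GBP5 fell (−1.80, SE 0.35) together with FURIN, and GBP2 was not called (0.34, adjusted p = 0.78) and spread from 6 to 196 counts among the mature animals. In this list of 4, 3 were called lower and 0 higher, with a median of −2.33, and SCG5 and GBP2 passed the filter through the immature libraries alone.

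Genes for the sorting of FURIN were mixed, with 2 of 6 called higher, 2 lower and a median of 0.20. FLNA, an actin crosslinker that tethers FURIN, fell (−2.66, SE 0.12), as did AP1S1 (−1.62, SE 0.17), a subunit of the AP-1 clathrin adaptor. AP1M1, the medium subunit of that adaptor, rose (2.64, SE 0.14), whereas AP1G1 and AP1B1, its large subunits, were not called (−0.02 and 0.42). PACS1, which returns FURIN to the trans-Golgi network, was called higher at 1.42 (SE 0.40), but mature replicate 1 had 118 counts and the others 46 each, and without that replicate the value was 0.94 and was not called.

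Enzymes that trim the ends left by convertases fell in 5 of 8 cases and rose in 1, with a median of −2.76. CPE, which removes the basic residues after the cut, fell from 302 ± 77.4 to 6.90 ± 1.89 CPM (log2 fold change −5.45, SE 0.27, adjusted p = 6.09e-07). PAM, which amidates peptide ends, fell from 191 ± 8.66 to 12.0 ± 0.687 CPM (−3.99, SE 0.12, adjusted p = 3.01e-08). The carboxypeptidase genes CPZ and CPD fell as well (−3.73 and −2.48), and so did QPCT (−3.04), a glutaminyl cyclase of the secretory route, whose value was −3.74 without mature replicate 2. QPCT passed the filter through the immature libraries alone, so its place among the lower genes was partly fixed by the filter. QPCTL, the Golgi form of that cyclase, rose (1.49, SE 0.20).

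Other genes of neurons and endocrine granules were mixed, and their sum followed CHGA, chromogranin A. Summed levels of 7 such markers ran from 467 to 670 CPM in immature and from 99.1 to 127 CPM in mature testes, of which CHGA made up 361 to 549 and 2.63 to 3.66 CPM. The other 6 summed to 61.2 to 121 and 96.5 to 123 CPM, which overlap. UCHL1 held most of the immature part, at 53.6 to 109 CPM against 43.5 to 45.7 CPM in the mature libraries. CHGB went the other way, from 0.603 to 1.17 CPM up to 43.0 to 69.8 CPM, so the overlap does not mean that the single genes were unchanged. In the list 2 were called higher, 3 lower and 2 not called, with no marker at 0 in all libraries of a group. CHGB passed the filter through the mature libraries alone, and SCG3 and SYP through the immature ones alone. These calls were therefore partly fixed by the filter. CHGA fell (−7.24, SE 0.23) and SYP fell (−2.97, SE 0.39), while CHGB, chromogranin B, rose (5.92, SE 0.29) and SCG2 rose (1.79, SE 0.33). The part of granule-bearing cells in the values of PCSK1, PCSK2, SCG5, PCSK1N and CPE was not tested.

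**Figure D4:**
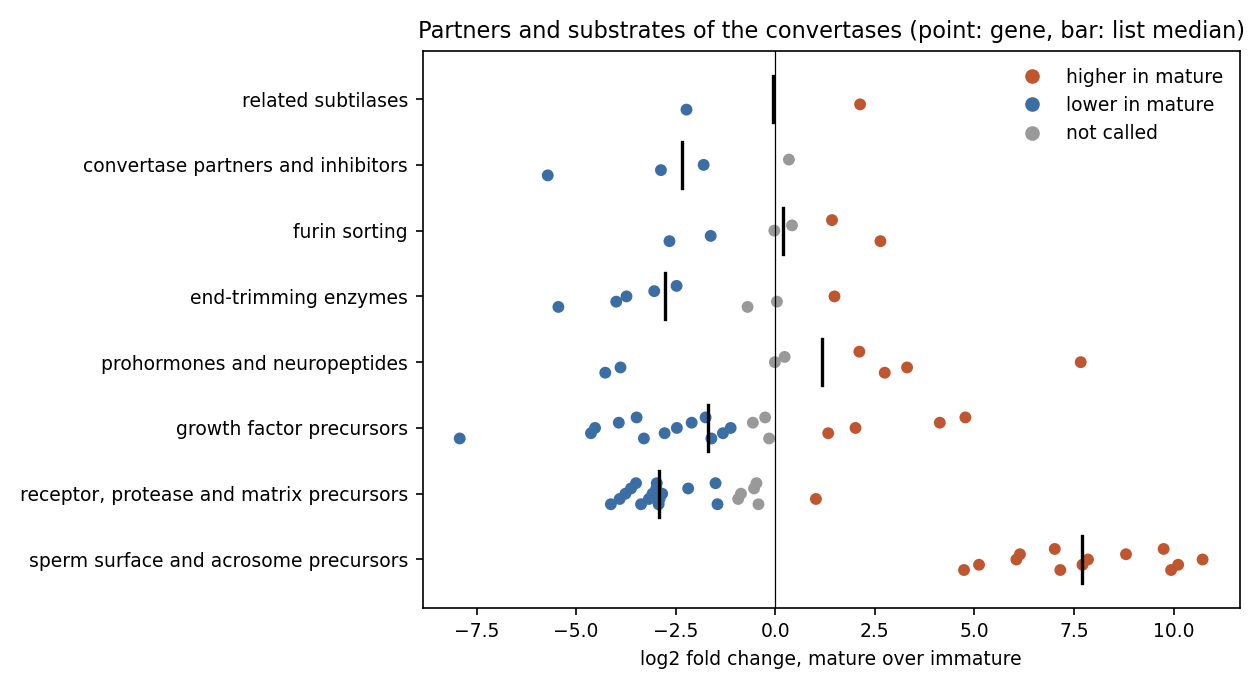
Log2 fold change, mature over immature, of every tested gene (points) in 8 lists of convertase relatives, partners and possible substrates. Points are coloured by call, with a black bar at each list's median and a line at 0. Whether convertases cut the listed proteins was not tested. The sperm surface and acrosome list lies at 4.74 to 10.73 with a median of 7.71, while the receptor, protease and matrix list has a median of −2.92 and 1 gene called higher.

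Of 17 prohormone and neuropeptide genes, 8 passed the filter on low counts, and of these 4 were called higher and 2 lower. All 4 called higher passed through the mature libraries alone, so the count of higher genes was partly fixed by the filter, and with no filter 7 were called higher. The opioid precursor genes PENK and PDYN fell. PENK, proenkephalin, went from 4000, 4038 and 2925 to 434, 225 and 94 counts (log2 fold change −3.89, SE 0.50), and PDYN, prodynorphin, from 285, 805 and 560 to 14, 39 and 31 (−4.27, SE 0.50). POMC, the precursor of adrenocorticotropin, was not called, at 11.5 ± 1.43 and 13.6 ± 1.08 CPM (0.23, adjusted p = 0.242). ADCYAP1 encodes the precursor of PACAP, a peptide known in mice as a product of PCSK4, and rose from 2, 3 and 2 to 36, 12 and 25 counts (3.31, SE 0.55, adjusted p = 0.000555). INSL6, a relaxin family precursor of germ cells, rose from 5, 4 and 6 to 1199, 948 and 980 counts (7.67, SE 0.20), and INSL3, its Leydig cell relative, was not called (−0.01, adjusted p = 0.984). NPY and TAC1, precursors of neuropeptide Y and of substance P, rose from low levels (2.75 and 2.11).

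Growth factor precursors were mostly lower in the mature testes. Of 23 genes, 20 were tested, 13 were called lower and 4 higher, with a median of −1.68. GDF9 and BDNF passed the filter through the mature libraries alone, and VEGFD through the immature ones alone. AMH, made by Sertoli cells, fell from 32230, 52621 and 39584 to 188, 216 and 108 counts (log2 fold change −7.92, SE 0.33), and INHA, the inhibin alpha subunit, fell by 4.52 on the log2 scale (SE 0.22). VEGFD, listed as FIGF, and PDGFA, both ligands of receptor tyrosine kinases, fell as well (−4.63 and −3.93). BDNF rose (4.77, SE 0.48, and 5.54 without immature replicate 3), as did GDF9 (4.13, SE 0.35), known from oocytes. In those same libraries the Sertoli cell markers other than AMH summed to 842 to 1059 and 149 to 182 CPM, and their part in the growth factor values was not tested.

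Receptors, membrane proteases and matrix proteins with a convertase site gave a similar picture, with 16 of 22 called lower, 1 higher and a median of −2.92. MMP14, a membrane matrix metalloprotease, fell (−4.13, SE 0.53), as did ADAMTS1, a secreted metalloprotease (−3.76, SE 0.59). Immature replicate 3 held the highest counts of both, and without it the values were −3.42 and −2.98. ITGA6, an integrin chain, and ADAM12, a membrane metalloprotease, fell too (−3.91 and −3.62). SORT1, a sorting receptor, was the gene called higher (1.02, SE 0.12), from 160 ± 21.5 to 325 ± 1.05 CPM, and lost its call at 0.82 with upper-quartile factors, at 0.95 with library totals only and at 0.96 without immature replicate 1 or without immature replicate 3.

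Sperm surface and acrosome precursors were counted mainly in the mature testes. Of 16 listed genes 13 were matched, and ADAM18, ADAM20 and ADAM30 are not analysed here. All 13 were tested and called higher, with a median of 7.71, but 9 of them, among them ADAM2, ADAM3A, ACR, ADAM29 and SPACA3, passed the filter through the mature libraries alone. That count and median were therefore partly fixed by the filter and are given as a description. Whether PCSK4 or another convertase cuts the listed proteins was not tested. ADAM2, fertilin beta, a sperm protein known in mice as a substrate of PCSK4, went from 8, 3 and 2 to 4916, 4529 and 5323 counts (log2 fold change 10.11, SE 0.30, adjusted p = 3.01e-08), and without immature replicate 1 its value was 10.88. ADAM3A, a relative that acts in sperm migration in mice, had the largest value of the list, 10.73 (SE 0.24).

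ACR, the acrosin precursor, rose from 13, 7 and 27 to 3992, 3114 and 3815 counts (7.85, SE 0.36, and 8.49 without immature replicate 3). ACRBP, the proacrosin-binding protein, which is processed during acrosome formation, rose from 91, 93 and 56 to 5732, 4508 and 5671 counts (6.05, SE 0.22, adjusted p = 9.44e-08). ADAM29 and SPACA3 had 2 reads each over the immature libraries. Their summed counts gave log2 ratios of 10.19 (95% counting interval 8.33 to 13.24) and 9.9998 (8.14 to 13.05).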

How the data were processed

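Polyadenylated RNA from 6 testes was sequenced, and the authors deposited raw read counts per gene and library. Per the methods and labels, reads passed a Fast-QC check before alignment by Hisat2 to Btau_5.0.1. For the Hisat2 version, gene annotation, read counter and strand setting, details were not given in the sources used here. Comparison tables of the authors (signals, log2 fold changes and EBSeq false discovery rates) and the small RNA tables, from 1 pool per age, were not used, and 0 columns of the gene table were left unused.

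The fit used edgeR 4.0.16 in R 4.3.3, with TMM factors, filterByExpr at a minimum count of 10 and a robust quasi-likelihood test. DESeq2 1.42.0 and limma 3.58.1 served as alternatives. Of 30983 genes, 28656 had a count and 19972 were tested. CPM are counts per 1000000 counts of the tested genes, scaled by TMM factors of 0.939 to 1.06. The SE was derived from the F statistic (log2 fold change divided by its square root), and intervals use the t quantile at the degrees of freedom of the test. Ratios of summed counts have exact 95% counting intervals. Library totals of 14139087 to 15846257 limit precision for genes with few counts. Within groups, pairs of libraries differed by a chi-square per degree of freedom of 9.60 to 38.8, so none was a repeat deposit.

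Named genes were the members, from each list the 4 called genes that changed most and up to 2 called in the opposite direction, a preset set (MBTPS1, TPP2, SCG5, PCSK1N, CPE, PAM, ADCYAP1, ACR, ACRBP and ADAM2, with 1 further item not reported here), the 3 nearest profiles per member and the neighbours in ARS-UCD2.0. Other genes were named after their values were seen. Members and lists were chosen with earlier results of these data known. The alternatives were other scalings, DESeq2, limma-voom, other filters, each library left out, a replicate block and no fold threshold. Same-numbered libraries of the 2 groups had correlations of −0.03, −0.02 and −0.01 between their deviations. Values near 0 over all genes cannot exclude handling shared by number, and the labels give no pairing of the animals.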

Additional observations from a re-analysis of the deposited data

How the results depend on the processing

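All 89 alternative values of the 6 convertases kept the direction and the call of the reported ones. Over the settings that could test it, the log2 fold change ran from 3.38 to 3.73 for PCSK4, from −1.80 to −1.51 for FURIN, from −0.62 to −0.20 for PCSK7, from 1.96 to 2.31 for PCSK6, from 2.04 to 2.81 for PCSK1 and from −4.78 to −3.08 for PCSK2. With a filter of 1 CPM in 3 libraries the number of convertases called lower was 1, because PCSK2 was then not tested. The PCSK4 share differed by 42.6 percentage points in place of 62.5 when FURIN was left out. Shares per kilobase were not run, since no transcript lengths were used. With the replicate number as a block (replicate block) PCSK4 was at 3.61 and FURIN at −1.60, with 3 convertases higher and 2 lower and 6337 genes higher and 5982 lower, and the block changed no call of a convertase. Upper-quartile factors moved the median of all genes from −0.04 to −0.24.

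For the 92 other named genes, 1275 of 1286 alternative values kept direction and call. PACS1, SORT1 and, with limma-voom, HBB (−5.47, adjusted p = 0.0711) lost their call in 6. Among genes that were not called, SNRPA1 was at −0.051 and LOC100300380 at −0.027 with upper-quartile factors, and LOC100300380 ran from −0.15 to 0.99 with each library left out. Of 240 list counts, 6 moved by over 1.5 times: prohormone genes called higher were 7 with no filter, furin sorting genes called higher were 1 without mature replicate 1, and the receptor, protease and matrix list had 0 called higher in the 4 settings in which SORT1 lost its call. At the depths used, PCSK2 in mature testes, with 4 reads in 3 libraries, is limited by counting.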

Other observations

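The marker lists held changes that stand in no comparison of the convertases. Of 4 leukocyte markers, CD14, a receptor for bacterial lipopolysaccharide, rose (log2 fold change 3.23, SE 0.16) while PTPRC, CD68 and CSF1R fell (−2.64, −1.85 and −1.32). HSD17B3, the testicular enzyme that makes testosterone from androstenedione, rose from 2.99 ± 0.501 to 14.9 ± 0.917 CPM (2.32, SE 0.21), while the other 4 Leydig cell markers were not called. The 4 endothelial markers fell, from summed levels of 125 to 260 CPM to between 26.0 and 33.0 CPM. Of 4 markers of peritubular and smooth muscle cells, 3 fell, with summed levels of 997 to 2184 and 471 to 509 CPM. HBB, a haemoglobin chain, was counted at 905, 35 and 479 reads in the immature replicates and at 10, 4 and 3 in the mature ones. It passed the filter through the immature libraries alone. AHSP, the other erythroid marker tested, was called higher (1.29, SE 0.36). Without HBB the other 4 erythroid markers summed to 1.94 to 4.09 and 3.07 to 4.43 CPM, which overlap.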
